A study of Mus musculus with 12 samples.

Results

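The 10 genes described here make nitric oxide, supply or compete for its substrate arginine, or set the activity of the enzyme that makes it: Nos3, Nos2, Ddah1, Ddah2, Arg1, Arg2, Ass1, Asl, Cav1 and Gch1. They were taken by symbol from probe sets annotated to 1 gene only, which gave 16 probe sets of the 45037 on the Affymetrix mouse genome array, and 10 of the 18193 genes with such a probe set. Ddah1 had 5 of these probe sets, Arg2 and Gch1 had 2 each, and the other 7 genes had 1 each. A further Ass1 probe set is shared with Gm5424 and was left out by this rule.

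Nitric oxide is made from arginine by nitric oxide synthases, and in the aortic endothelium by the endothelial enzyme Nos3, where it relaxes the vessel wall and restrains leukocyte adhesion. Nos3 needs tetrahydrobiopterin, whose synthesis starts with Gch1, and is held inactive at caveolae by Cav1. Arginases draw on the same arginine, Ass1 and Asl rebuild it from citrulline, and Ddah1 and Ddah2 break down the methylated arginines that inhibit the synthases. In liver, arginase, Ass1 and Asl also serve the urea cycle.

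The study compared adult C57BL/6J mice lacking Dscr-1, a feedback inhibitor of calcineurin and NFAT that is encoded by Rcan1, lacking ApoE, or lacking both. The aortic comparison set 2 arrays of double null (Dscr-1; ApoE-KO) against 2 arrays of ApoE null (ApoE-KO) endothelial cells, so that all 4 aortic arrays came from mice without ApoE. These were primary endothelial cells taken from aorta and kept in culture for several days before RNA extraction. Beside them stood 8 liver arrays, 2 for each of 4 genotypes (WT, ApoE null, Dscr-1 null, double null). The labels give a high-fat diet of 12 weeks for the liver mice, whereas the study's results text speaks of normal chow. The series design text names Dscr-1 knockout mice as the aortic comparison group, whereas titles and genotype labels name ApoE-KO, and the labels were followed. The 2 experiments behind each group are called independent, but nothing says how many animals or cultures each array holds, so that a p-value here speaks of array-to-array spread, which may be technical.

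Liver values were linear signals with array medians between 32.2 and 44.7, and aortic values were log2 values with array medians between 4.455 and 4.499. Their scales differ, and no difference between genotypes was taken across tissues or probe sets. Levels of different probe sets were used to choose the brightest and to sum markers. For Ass1, the level in each tissue was used to call its probe set dim. Apoe checked the liver labels: its signal was 19937 to 21510 on the 4 WT and Dscr-1 null arrays and 79.8 to 305.0 on the 4 ApoE null and double null arrays. All 4 aortic arrays are labelled as lacking ApoE, so that Apoe could not tell their genotypes apart. Its probe set read 7.27 and 7.17 in aortic ApoE null and 8.29 and 6.69 in aortic double null cells. These values lay above the array median on all 4 arrays, and the reason was not tested. The brighter Rcan1 probe set read 9.99 and 9.92 in aortic ApoE null and 10.09 and 10.26 in aortic double null cells. In liver it read 210.0 and 133.7 in WT and 255.2 and 353.1 in Dscr-1 null mice. The brighter probe set was thus not lower in mice labelled as lacking Dscr-1. The other read 19.6 and 46.9 in WT against 7.5 and 5.1 in Dscr-1 null livers, a difference of -1.09 (standard error 0.59), so that the 2 probe sets disagreed there. In aortic cells it read 6.30 and 5.95 in ApoE null against 6.65 and 6.86 in double null. Since no source used here places either probe set relative to the deleted part, Rcan1 does not check these labels. Every direction below rests on the labels. All 12 endothelial marker genes lay above the array median on all 4 aortic arrays.

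On GRCm38.p6, Nos3 lies at chr5:24364816-24384474, Gch1 at chr14:47153895-47189413, Ddah2 at chr17:35059035-35062099 and Arg2 at chr12:79130788-79156301.

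One array stood apart in each tissue. Aortic double null replicate 2 had a mean correlation of 0.965 with the other aortic arrays, against 0.980 to 0.982 for these. The gap between the 2 double null arrays passed 1 on the log2 scale for 698 of 11647 genes (5.99%), against 8 genes (0.0687%) between the 2 ApoE null arrays. In liver, ApoE null replicate 1 had a mean correlation of 0.835 with the other arrays, against 0.873 to 0.883 for these, and the highest median, at 44.7. The ratio of Actb control signal at the transcript's end to that at its start, a measure of RNA integrity, was 3.15 and 5.50 for WT. It was 5.19 and 4.75 for Dscr-1 null, 6.83 and 4.01 for ApoE null, and 5.96 and 7.84 for double null livers. The part of RNA integrity in the liver differences was not tested.

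Across the 5 comparisons, no gene of the 10 passed the test (limma, Benjamini-Hochberg adjusted p under 0.05 over all probe sets that passed the array median on 2 or more arrays of that tissue). In aortic cells 7 of the 10 genes reached this filter, while Arg1, Arg2 and Ass1 did not. Of these 7, 3 were higher and 4 lower in double null than in ApoE null cells, with a median difference of -0.04 against -0.01 over all 11647 genes tested. After quantile normalization, which turned Cav1, 4 were higher and 3 lower. Only 2 genes of the 11647 (0.0172%) were called in that comparison, 1 of them higher, so a count of 0 among 7 is near this background. In the same fit 576 genes had an unadjusted p under 0.05, none of them among the 7, and with the replicate number as a block 0 genes were called. The plots of log2 values show that some of the 10 genes were level across the 4 arrays and some moved on 1 array, while Ddah2 was lower on both double null arrays.

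**Figure D1:**
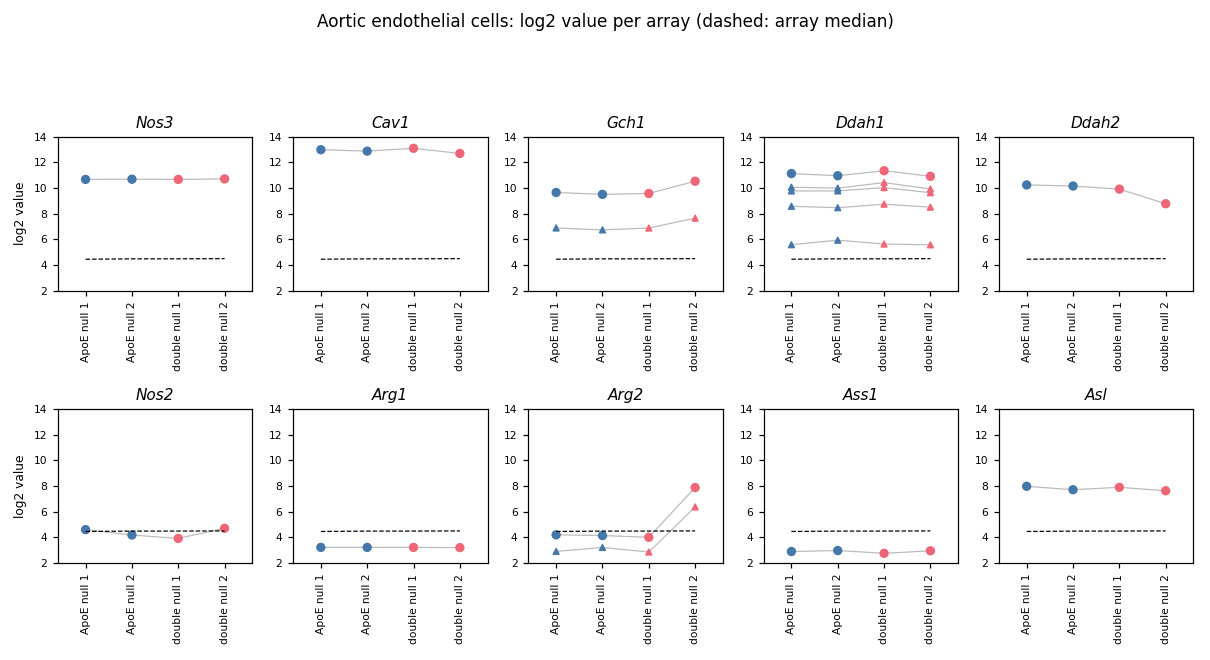
Log2 value (vertical axis) of each gene on the 4 aortic arrays (horizontal axis; blue ApoE null, red double null), with circles for the brightest probe set, triangles for further probe sets, lines joining the arrays of 1 probe set, and a dashed line at the array median. Nos3 lay between 10.68 and 10.72 on all arrays, Arg2 was above the median on double null replicate 2 alone, and Ddah2 was lower on both double null arrays.

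Promoter sequence is shown for Gch1 and Ddah2, which had the largest aortic differences among the genes tested, and for Ddah1, the paralog of Ddah2, whose genotypes overlapped. The sequences are the 250 bases before the transcription start in the RefSeq annotation of GRCm38.p6, in the direction of the gene, at chr14:47189414-47189663 (minus strand) for Gch1, chr17:35058785-35059034 (plus strand) for Ddah2 and chr3:145758442-145758691 (plus strand) for Ddah1. Capitals mark matches, on either strand, to the NFAT core GGAAA (reverse TTTCC), the CCAAT box (reverse ATTGG), the GC box GGGCGG (reverse CCGCCC) and the TATA box TATAAA (reverse TTTATA). No match overlapped another in these windows.
Gch1: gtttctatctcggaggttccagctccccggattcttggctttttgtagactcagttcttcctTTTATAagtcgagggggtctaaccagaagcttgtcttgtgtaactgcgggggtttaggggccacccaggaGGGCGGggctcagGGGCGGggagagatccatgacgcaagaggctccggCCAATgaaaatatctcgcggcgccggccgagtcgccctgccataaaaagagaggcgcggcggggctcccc
Ddah2: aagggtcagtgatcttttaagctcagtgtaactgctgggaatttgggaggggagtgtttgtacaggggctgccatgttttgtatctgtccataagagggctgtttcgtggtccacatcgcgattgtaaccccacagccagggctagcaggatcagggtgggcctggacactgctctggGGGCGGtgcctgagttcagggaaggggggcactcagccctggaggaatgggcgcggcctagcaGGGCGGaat
Ddah1: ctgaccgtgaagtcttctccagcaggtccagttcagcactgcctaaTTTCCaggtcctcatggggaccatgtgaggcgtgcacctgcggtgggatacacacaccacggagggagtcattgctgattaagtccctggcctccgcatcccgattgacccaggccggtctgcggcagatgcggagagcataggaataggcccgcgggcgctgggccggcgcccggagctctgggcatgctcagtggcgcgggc

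The Gch1 window held 2 GC boxes, 1 CCAAT box and 1 TATA box match, the Ddah2 window held 2 GC boxes, and the Ddah1 window held 1 NFAT core. Over 32851 promoter windows of the same length, 55.6% held the NFAT core, 33.8% a CCAAT box, 32.7% a GC box and 12.4% a TATA box match. The NFAT core is the site of the factor that Dscr-1 restrains, and of the 6 windows of 5 of these genes it was found in those of Ddah1 and in 1 of the 2 of Cav1. A match of these letters is a description of the sequence only.

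Nos3, the endothelial nitric oxide synthase, varied little over the 4 arrays. Its log2 values were 10.68 and 10.69 in ApoE null against 10.68 and 10.72 in double null cells. The arrays of the 2 genotypes overlapped within a span narrower than 0.05. The difference was 0.01 (standard error 0.14, 95% interval -0.36 to 0.38), which bounds it but does not show that it is absent. Same-numbered aortic arrays share the start of their source names and were read here as a run, which is an inference. Within these inferred runs the differences were 0.0017 and 0.024.

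Cav1, the caveolar scaffold that binds and inhibits Nos3, read 12.99 and 12.88 in ApoE null against 13.10 and 12.70 in double null cells. The ApoE null arrays lay between the 2 double null arrays. The difference was -0.04 (standard error 0.20, 95% interval -0.54 to 0.47), and without double null replicate 2 it was 0.17. Nos2, the inducible synthase of activated macrophages, lay at the array median, with 4.60 and 4.18 in ApoE null against 3.91 and 4.70 in double null cells. Its arrays overlapped, and its difference was -0.68 within the first run and 0.52 within the second.

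Gch1, the rate-limiting enzyme of tetrahydrobiopterin synthesis, was higher on 1 double null array. Its brighter probe set read 9.66 and 9.51 in ApoE null cells, and 9.58 and 10.53 in double null cells. The other probe set read 6.89 and 6.74 in ApoE null cells, and 6.88 and 7.65 in double null cells. By both probe sets, double null replicate 1 lay within the ApoE null values and replicate 2 lay above all other arrays. The differences were 0.47 (standard error 0.34) and 0.45 (standard error 0.29), both with adjusted p = 1 from limma. Within runs the brighter probe set differed by -0.08 and 1.03. Without double null replicate 2 the difference was -0.0020, and without replicate 1 it was 0.95, each resting on 1 double null array.

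Ddah1 and Ddah2 hydrolyse asymmetric dimethylarginine, the endogenous inhibitor of the synthases. The brightest Ddah1 probe set read 11.13 and 10.96 in ApoE null against 11.35 and 10.92 in double null cells, and its difference was 0.09 (standard error 0.21). The other 4 differed by -0.16 to 0.15, and the genotypes overlapped by all 5 probe sets. Ddah2 read 10.25 and 10.16 in ApoE null against 9.92 and 8.78 in double null cells. Both double null arrays lay below both ApoE null arrays, and replicate 2 was the lowest of the 4. The difference was -0.85, or 1.81-fold lower (standard error 0.39, 95% interval -1.87 to 0.16, unadjusted p = 0.0814 and adjusted p = 1 from limma). Within runs it was -0.33 and -1.38. Without double null replicate 2 it was -0.29, and without replicate 1 it was -1.42, each resting on 1 double null array. Ddah2 was the only one of the 7 genes whose double null arrays were all lower, and none had them all higher, where over all genes tested 14.3% were all lower and 16.8% all higher.

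**Figure D2:**
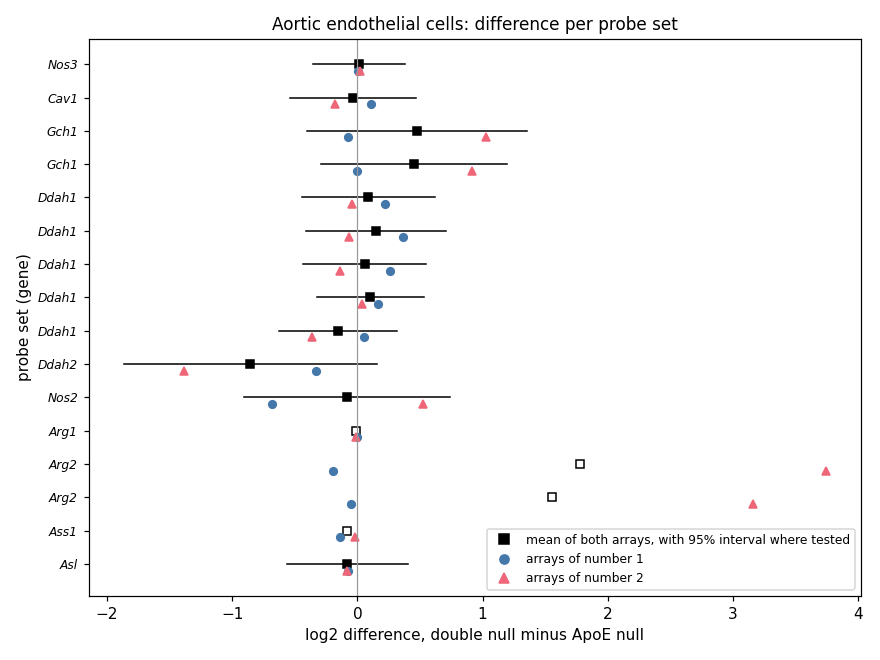
Log2 difference of double null minus ApoE null aortic cells (horizontal axis) for each of the 16 probe sets (vertical axis, named by gene): squares are the mean over both arrays with the 95% interval from limma (open squares were not tested), circles the arrays of number 1 and triangles those of number 2. Every interval holds 0, and Arg2, Gch1 and Ddah2 differed mainly in the arrays of number 2.

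The arginases, which split arginine into ornithine and urea, were below the array median in ApoE null cells. Arg1, the liver form, read between 3.197 and 3.214 on all 4 arrays. Arg2, the mitochondrial form that endothelial cells and macrophages can express, read 4.19 and 4.14 in ApoE null cells, and 3.999 and 7.88 in double null cells. Its other probe set read 2.90 and 3.21 in ApoE null cells, and 2.85 and 6.37 in double null cells. Both probe sets were thus below the median on 3 arrays and high on double null replicate 2 alone, where the brighter lay 3.88 above the other double null array. Of 18193 genes, 14 had a gap between the double null arrays at least as large. Arg2 was above the median on 1 array and therefore not tested. With no filter its difference was 1.77 with adjusted p = 1 from limma, and within runs it was -0.19 and 3.74.

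Ass1, which joins citrulline and aspartate, was below the median on all 4 arrays, with 2.89 and 2.97 in ApoE null against 2.75 and 2.95 in double null cells. Its only probe set used here was dim in liver too, at 21.1 to 113.6, where the enzyme is abundant. The low aortic values therefore do not show that Ass1 was absent. Asl, which releases arginine from argininosuccinate, read 7.98 and 7.71 in ApoE null against 7.90 and 7.63 in double null cells. For both genes the genotypes overlapped, and the Asl difference was -0.08 (standard error 0.19), with -0.08 within each run.

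As the bars of summed markers show, the macrophage and fibroblast sums were higher on both double null arrays. The smooth muscle sum was higher on double null replicate 1 alone. The linear values of 12 macrophage genes summed to 432 and 417 on the ApoE null arrays and to 732 and 1649 on the double null arrays. Lyz2, the lysozyme of macrophages and neutrophils, read 5.33 and 5.48 in ApoE null against 7.46 and 9.47 in double null cells. Adgre1, Ptprc, Itgam, Mrc1, Marco, C1qa and Fcgr1 were below the median on all 4 arrays. The endothelial sum was 26801 and 26103 in ApoE null against 26106 and 22004 in double null cells, the lowest value falling on the array where Arg2 and Gch1 were high and Ddah2 low. Of the 12 endothelial genes, 8 had their lowest value on that array and 1 its highest, and in the comparison of the genotypes 4 were higher and 8 lower in double null cells, with a median of -0.19. The 7 fibroblast genes summed to 5234 and 5123 in ApoE null against 10975 and 9313 in double null cells. The brightest, Dcn, read 12.02 on both ApoE null arrays against 12.79 and 13.09 in double null cells. On double null replicate 2 every other fibroblast gene read below both ApoE null arrays, and on replicate 1 above both. Col1a2, for example, read 8.80 and 8.47 in ApoE null against 10.87 and 7.63 in double null cells. The 7 smooth muscle genes summed to 2642 and 2506 in ApoE null against 6145 and 2063 in double null cells. Acta2 and Tagln read above both ApoE null arrays on double null replicate 1 and below both on replicate 2. Smtn, at 8.21 and 8.20 in ApoE null against 8.60 and 8.65 in double null cells, was higher on both double null arrays, as was Des. Myh11, Cnn1 and Myocd were below the median on all 4 arrays. All 6 neutrophil genes were below the median on all 4 arrays. The part of these markers in the Arg2, Gch1 and Ddah2 values was not tested. In such bulk samples a change in the share of a cell type and a change in RNA per cell cannot be told apart.

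**Figure D3:**
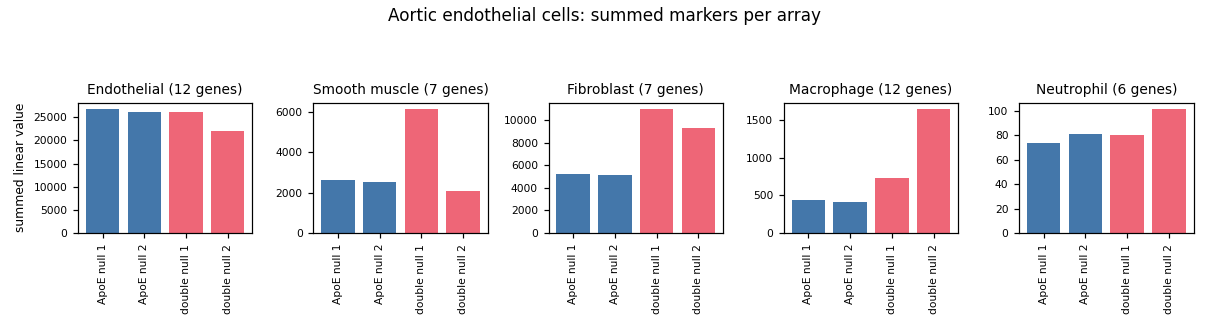
Sum of linear values over the measured marker genes of 5 cell types (vertical axes, from 0, each with its own scale) on the 4 aortic arrays (blue ApoE null, red double null), 1 bar per array. The macrophage sum was 1649 on double null replicate 2 against 417 to 732 on the other arrays.

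Cp, the plasma ferroxidase ceruloplasmin, which can oxidise nitric oxide to nitrite, was read by 8 probe sets, and both double null arrays lay above both ApoE null arrays by all 8. These were read on the same arrays, and the dimmest was below the median on each of them and not tested. Over all genes tested, 16.8% had both double null arrays higher. The brightest read 8.31 and 8.48 in ApoE null against 9.66 and 11.62 in double null cells. Its difference was 2.25 (standard error 0.64, adjusted p = 0.905 from limma), and 1.35 and 3.14 within runs. Without double null replicate 2 it was 1.27, the value being larger on the array that stood apart.

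Of 59 further genes that surround these 10 in the pathway, 40 were tested in aortic cells. Of these, 26 were higher and 14 lower in double null cells, where 47.9% of all genes tested were higher. Their median difference was 0.12 against -0.01 over all genes. By limma 0 were called, beside 0.0172% of all genes. An unadjusted p under 0.05 was reached by 2 of the 40, beside 4.95% of all genes, so that this count is near the background. After quantile normalization 28 were higher and 12 lower, with a median of 0.14 against 0.0079 over all genes. Without double null replicate 2 the numbers were 29 and 11, with a median of 0.14 against 0.034 over all genes. The share of all genes that were higher was not counted in these 2 settings. All 6 arginine transport genes were higher, also after quantile normalization, with a median of 0.41 and a range of 0.14 to 1.80. Without double null replicate 2, 5 of the 6 were higher, and the median of the 6 was 0.19 against 0.034 over all genes. Slc7a2, the cationic amino acid transporter that feeds arginine to inducible synthase and arginase in macrophages, read 7.36 and 7.33 in ApoE null against 8.61 and 9.66 in double null cells. Both double null arrays lay above both ApoE null arrays, and the difference was 1.80 (standard error 0.36, unadjusted p = 0.00452 and adjusted p = 0.686 from limma), or 1.27 without replicate 2. Slc7a7, a light chain of the exchanger that moves cationic amino acids, differed by 0.50 (standard error 0.19, adjusted p = 1 from limma), or 0.31 without replicate 2. Slc7a3 read 6.57 and 6.26 in ApoE null against 6.399 and 8.04 in double null cells, the high value again on replicate 2 alone, without which its difference was -0.020.

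The cofactor genes beyond Gch1 had 5 members tested, 4 higher and 1 lower, with a median of 0.12. Pcbd1, which recycles the cofactor, differed by 0.47 (standard error 0.18), and Qdpr, which reduces it, by 0.35 (standard error 0.17). Without double null replicate 2 these differences were 0.61 and 0.20. Of the genes acting downstream of arginase, 4 of 5 were higher, among them Aldh18a1 of proline synthesis by 0.53 (standard error 0.24) and the spermidine synthase Srm by 0.39 (standard error 0.21), or by 0.24 and 0.16 without double null replicate 2. Of the 7 arginine methyltransferases tested, 4 were higher and 3 lower, within -0.20 to 0.23. Of 9 partners and kinases of Nos3, 5 were higher and 4 lower, with Nosip, which moves Nos3 off the membrane, at -0.25 (standard error 0.15), or -0.33 without replicate 2, and Nostrin, which sequesters Nos3 in vesicles, at 6.07 and 5.82 in ApoE null against 6.33 and 4.39 in double null cells, a difference of -0.58 that turned to 0.39 without replicate 2. Gucy1b1, a subunit of the soluble guanylate cyclase that senses nitric oxide, read 7.05 and 6.63 in ApoE null against 7.27 and 4.30 in double null cells, so that it too departed on replicate 2 alone, and its difference of -1.05 turned to 0.43 without it. Of the transcription factors known to induce Nos3, Klf2 differed by -0.21 and Klf4 by 0.19, with overlapping arrays for both and differences of 0.036 and -0.05 without replicate 2. In the urea cycle, Cps1, Otc, Nags and Slc25a2 were below the median on all 4 arrays, and the 2 genes tested differed by -0.0018 and 0.17.

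**Figure D4:**
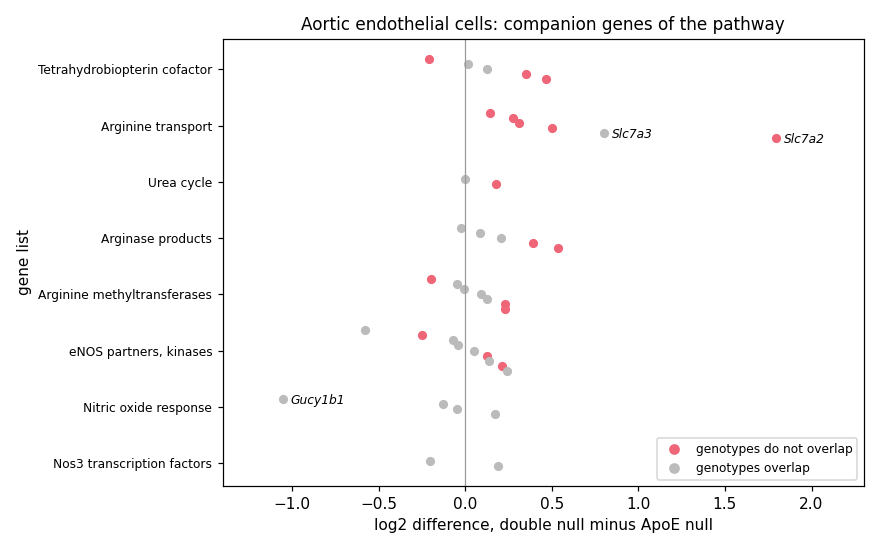
Log2 difference of double null minus ApoE null aortic cells (horizontal axis) for 40 further genes of the pathway in 8 lists (vertical axis), 1 point per gene, red where the arrays of the 2 genotypes do not overlap and grey where they do. The 6 arginine transport genes lie to the right of 0, with Slc7a2 at 1.80.

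In liver 9 of the 10 genes reached the filter, all but Nos2, and 0 of 9 were called in any of the 4 comparisons (limma). The background was of the same order, with 0.00678% of the 14758 genes tested called in Dscr-1 null against WT, 0.0136% in ApoE null against WT, 0.0136% in double null against WT and 0% in double null against ApoE null mice. In this last comparison 774 genes, none of them among the 9, had an unadjusted p under 0.05. An unadjusted p under 0.05 was reached by 1 of the 9 in Dscr-1 null against WT (Arg2), beside 564 of all 14758 genes (3.82%), and by 1 in ApoE null against WT mice (Ddah2), beside 842 (5.71%). Ddah2 had passed the filter on arrays of mutant mice only. The median standard error over all genes was 0.46 in liver and 0.18 in aortic cells. The median absolute difference was likewise larger in liver, at 0.29 to 0.34 against 0.13. Since the values of the tissues were processed differently, these standard errors do not compare precision.

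Of the 9, the Dscr-1 null arrays were all higher than WT for 2 genes and all lower for 1, where 16.3% and 16.9% of all genes tested were. The ApoE null arrays were all higher than WT for 4 genes and all lower for 0, beside 17.3% and 16.7% of all genes. For double null against WT the counts were 2 and 0, beside 19.7% and 18.6%, and for double null against ApoE null 1 and 2, beside 16.6% and 15.6%. The 3 comparisons with WT share the WT arrays, and both double null comparisons share the double null arrays.

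Arg1, the urea cycle arginase of hepatocytes, had signals of 14561 and 11562 for WT, 14128 and 13790 for Dscr-1 null, 10351 and 13581 for ApoE null, and 14339 and 12216 for double null mice. Its differences lay between -0.13 and 0.16. Asl read 2399 and 1841 for WT, 2489 and 2211 for Dscr-1 null, 1540 and 1890 for ApoE null, and 2981 and 2106 for double null mice. Both double null arrays lay above both ApoE null arrays, by 0.55 (standard error 0.38, adjusted p = 0.919 from limma), or 0.40 without ApoE null replicate 1. The Ass1 probe set that names 1 gene was dim in liver, at 21.1 to 113.6 over the 8 arrays, although the enzyme is abundant there. Its differences lay between -0.14 and 0.81, with a standard error of 0.60 each, and only the Dscr-1 null arrays lay wholly on 1 side of WT.

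Arg2 read 39.5 and 36.7 for WT, 4.6 and 16.1 for Dscr-1 null, 86.4 and 55.0 for ApoE null, and 41.3 and 15.8 for double null mice. The Dscr-1 null arrays lay below WT, and the double null arrays below ApoE null. The differences were -1.07 (standard error 0.45, unadjusted p = 0.0438 and adjusted p = 0.9999 from limma) and -0.998 (standard error 0.45, adjusted p = 0.776 from limma), the second being -0.73 without ApoE null replicate 1. The other Arg2 probe set was below the median on all 8 arrays, and the brighter was above it on 5.

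Ddah2 was dim in liver, with 2.9 and 22.0 for WT, 68.2 and 11.1 for Dscr-1 null, 94.6 and 47.7 for ApoE null, and 55.6 and 43.1 for double null mice. It was below the array median on both WT arrays and above it on 5 arrays of mutant mice. It thus entered the test only through groups where it was high. Its differences from WT, and its place among the genes with all arrays higher, are therefore descriptions only. Both ApoE null and both double null arrays lay above WT. The differences from WT were 1.65 (standard error 0.62, unadjusted p = 0.0303 and adjusted p = 0.714 from limma) and 1.28 (standard error 0.62, adjusted p = 0.862 from limma). Without ApoE null replicate 1 the first was 1.25. The 12 macrophage genes summed to 3847 and 4753 on the WT arrays, 5198 and 3661 on those of Dscr-1 null, 7464 and 5264 on those of ApoE null, and 10572 and 7198 on those of double null livers. Their part in the Ddah2 values was not tested.

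Ddah1 read 823.8 and 532.6 for WT, 1148 and 848.9 for Dscr-1 null, 453.2 and 762.5 for ApoE null, and 512.0 and 570.2 for double null mice. The Dscr-1 null arrays lay above WT by 0.56 (standard error 0.43, adjusted p = 0.9999 from limma). Of the other 4 probe sets, 3 differed by 0.72 to 0.85 in the same direction and 1 by -0.05, and none was called. Between double null and ApoE null livers, where the brightest probe set overlapped, the same 3 had both double null arrays below both ApoE null arrays, with differences of -0.64, -0.63 and -0.58 (standard errors 0.36, 0.41 and 0.47), and none was called. Gch1 read 748.4 and 947.4 for WT, 665.2 and 967.7 for Dscr-1 null, 633.1 and 888.6 for ApoE null, and 736.4 and 799.1 for double null mice by its brighter probe set, which overlapped in all 4 comparisons. By the other probe set the ApoE null arrays, at 657.5 and 1016.9, both lay above WT, at 573.5 and 634.9, with a difference of 0.43 (standard error 0.43, adjusted p = 0.919 from limma), and the other 3 comparisons overlapped.

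The vascular genes were dim in whole liver. Nos3 read 51.7 and 50.8 for WT, 99.4 and 27.6 for Dscr-1 null, 99.4 and 105.7 for ApoE null, and 61.4 and 78.4 for double null mice. The ApoE null arrays lay above WT by 0.82 (standard error 0.49, adjusted p = 0.863 from limma), or 0.86 without ApoE null replicate 1, and the double null arrays lay between these groups. Cav1 read 29.5 and 58.8 for WT, 39.2 and 83.5 for Dscr-1 null, 91.3 and 88.6 for ApoE null, and 96.0 and 12.1 for double null mice. Its ApoE null arrays lay above WT by 0.86 (standard error 0.66, adjusted p = 0.891 from limma), or 0.84 without ApoE null replicate 1, and the double null arrays held the highest and the lowest of the 8 values. Nos2 was below the median on 7 of the 8 arrays, at 3.3 to 13.2, and read 38.0 on Dscr-1 null replicate 2. For the 9 genes tested, the effect of Dscr-1 loss did not differ past the threshold between mice with and without ApoE (limma interaction, adjusted p above 0.999 for each gene), with standard errors of 0.51 to 0.94.

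**Figure D5:**
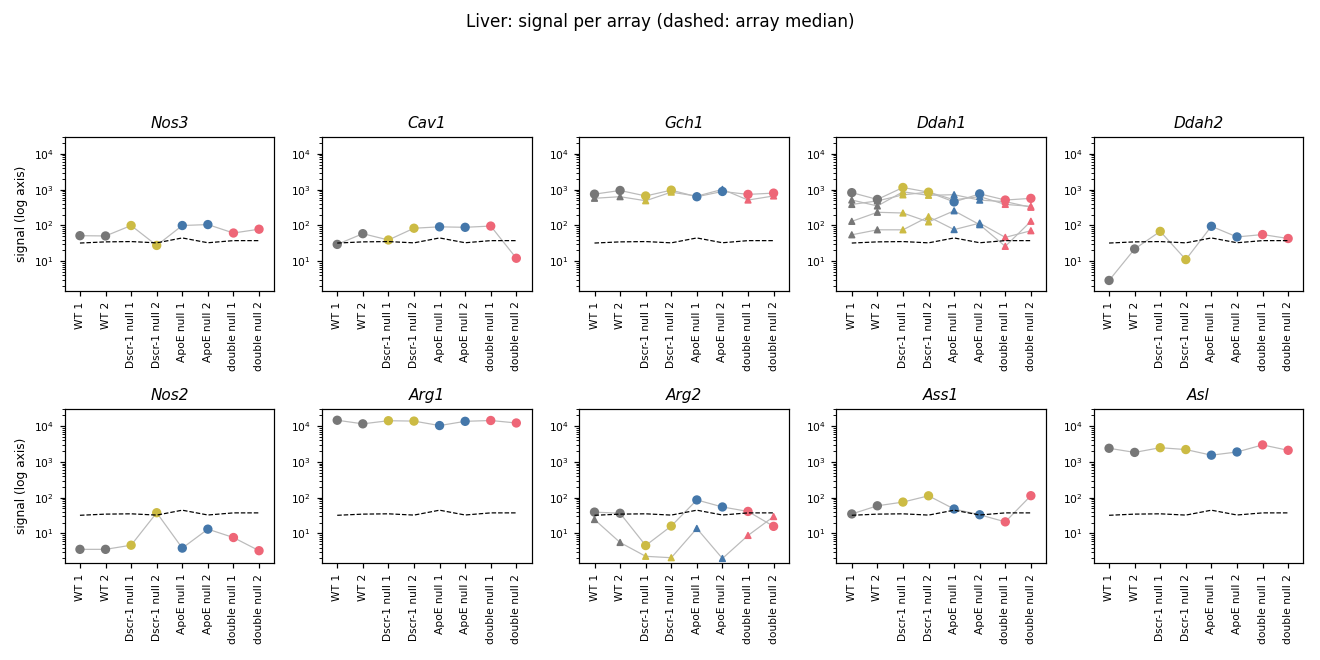
Signal (vertical axis, log scale) of each gene on the 8 liver arrays (horizontal axis; grey WT, yellow Dscr-1 null, blue ApoE null, red double null), with circles for the first probe set of the gene, triangles for further probe sets, and a dashed line at the array median. Arg1 lay between 10351 and 14561, the circles of Gch1 overlapped between the genotypes, and Nos2 passed the median on Dscr-1 null replicate 2 alone.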

How the data were processed

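Expression was measured on 12 arrays of 6 groups with 2 arrays each. The liver intensity values were made by the authors with GeneChip Operating Software (MAS5), the average signal of an array being set to 100. The aortic columns were deposited as log2 values, and no source used here states how they were normalized (the submitters' notes list Transcriptome Analysis Console). Depth has no meaning for arrays, and 2 arrays per group limit the precision.

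After 64 control probe sets were set aside, 45037 remained, of which 34945 named 1 gene, 932 several and 9160 none. Of the 34945, 34741 were matched by Entrez identifier to RefSeq (GRCm38.p6) symbols. Differences were fitted per tissue on group means with limma 3.58.1 in R 4.3.3, on log2(signal + 16) in liver, so that a difference understates the change of dim genes, and on the values as deposited in aortic cells. Probe sets that passed the array median on 2 or more arrays of a tissue entered, and p-values were adjusted over all of them. Its brightest probe set stands for a gene, and a gene is counted as tested where this one passed. The fit was tested on simulated data.

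The 10 genes with all their probe sets were named, with Cp, Apoe and Rcan1, and from each list of further genes up to 3 with the lowest unadjusted p. Nostrin, Gucy1b1, Slc7a3 and Lyz2 were singled out after their values were seen where this rule did not name them. The genes and lists were chosen with earlier results of these data known.

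Same-numbered aortic arrays share the start of their source names, read here as 1 run, and their deviations from the group means had a correlation of 0.297, so that the replicate number was used as a block beside the unpaired fit. In liver the correlations were -0.00155 to 0.0293 and the numbers pair nothing. Differences within each run, and the counts in each list without double null replicate 2 or after quantile normalization, were added after the data were seen. Alternatives were the offset, the filter, quantile normalization, the block, each array left out, the mean over probe sets and the methods' t-test.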

Additional observations from a re-analysis of the deposited data

How the results depend on the processing

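With 2 arrays a group, a call depended on single arrays, and dim liver signals near the array median carry little precision. In aortic cells 2 genes were called, against 0 with the replicate block, 1 with the mean of all probe sets of a gene, 0 with the methods' t-test after Benjamini-Hochberg adjustment and 418 at its unadjusted p under 0.05. Leaving out 1 array gave 0 to 1964 genes and 0 to 2 of the 10 genes: 1964 without double null replicate 1 and 465 without double null replicate 2, both with the spread of the ApoE null pair alone, and 0 without either ApoE null array. For Dscr-1 null, then ApoE null, then double null against WT livers, with 1, 2 and 2 genes called, an offset of 1 gave 0, 0 and 1, an offset of 64 gave 5, 13 and 23, and the mean of probe sets gave 0, 1 and 1. With 1 array left out the counts ran from 0 to 1, from 0 to 2 and from 0 to 2. The replicate block changed no other call, and none of the 10 genes was called under any alternative except Ddah2 and Gch1 without aortic double null replicate 1.

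None of these genes passed the test in the main fit, so that every change of sign below is of a difference that was not called. In aortic cells, leaving out 1 array moved the log2 difference of Nos3 over -0.0059 to 0.031, Nos2 over -0.48 to 0.31, Ddah1 over -0.13 to 0.30, Asl over -0.21 to 0.054, Cav1 over -0.24 to 0.17 (0.0024 with quantile normalization) and Gch1 over -0.0020 to 0.95. In Dscr-1 null against WT livers the ranges were -0.63 to 0.78 for Nos3, -0.061 to 0.27 for Arg1, -0.032 to 0.35 for Asl, -0.080 to 0.77 for Cav1 and -0.33 to 0.20 for Gch1 (0.013 with the mean of probe sets). In ApoE null against WT livers they were -0.53 to 0.20 for Ddah1 (0.22 with the mean of probe sets), -0.33 to 0.066 for Arg1, -0.42 to 0.14 for Ass1 and -0.40 to 0.076 for Gch1 (0.13 with the mean of probe sets). In double null against WT livers they were -0.59 to 0.020 for Ddah1, -0.14 to 0.19 for Arg1 (-0.020 with quantile normalization), -0.77 to 0.083 for Arg2, -0.74 to 1.06 for Ass1, -1.05 to 0.94 for Cav1 (0.042 with an offset of 64) and -0.30 to 0.035 for Gch1. In double null against ApoE null livers they were -0.48 to 0.25 for Ddah1, -0.77 to 0.030 for Ddah2, -0.037 to 0.35 for Arg1, -0.60 to 1.20 for Ass1, -1.91 to 0.080 for Cav1 and -0.21 to 0.27 for Gch1 (-0.22 with the mean of probe sets). The cause of these changes was not tested.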
